A study of Mus musculus with 3 samples.

Results

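The genes described here encode 4 of the NF-kB transcription factor subunits, without Nfkb1, and IkB proteins that hold such subunits in check. They were followed in CT26.WT, a mouse colon carcinoma cell line. The members were the 10 genes Nfkb2, Rel, Rela, Relb, Nfkbia, Nfkbib, Nfkbid, Nfkbie, Nfkbiz and Bcl3, taken as members of these gene families, with earlier results of these data known. Every probe set annotated to exactly one of these symbols was taken, which gave 19 of the 45101 probe sets on the array and 10 of 18193 named genes. Cultures were starved of serum for 12 h, and 2 of them were then given recombinant mouse S100a8 or S100a9, calcium-binding proteins that myeloid cells release in inflammation, at 4 µg/ml for 24 h. The control culture received no S100 protein. Its sample title names BSA (bovine serum albumin), whereas its description and the series design name normal saline. The labels give no exposure time for the control. Total RNA was read on 3 Affymetrix arrays (Mouse Genome 430 2.0), so each group (S100a8, S100a9 or control) was 1 array of 1 culture of 1 line. There were no replicates and no test was possible, and the spread between cultures, which sets the precision of every value, is unknown. Both comparisons with control use the same control array, so anything particular to that array enters both.

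NF-kB proteins bind DNA as dimers built from Rel family subunits. Rela, Relb and Rel carry a transactivation domain, and Nfkb2 encodes the precursor p100, which is processed to the subunit p52 in the non-canonical pathway. In resting cells the dimers are kept in the cytoplasm by IkB proteins, whose ankyrin repeats cover the nuclear localisation signal. Signals from receptors such as Tlr4 activate the IkB kinase, the classical IkB proteins (Nfkbia, Nfkbib and Nfkbie) are phosphorylated and degraded, and the freed dimers enter the nucleus. Nfkbid, Nfkbiz and Bcl3 encode the atypical, nuclear IkB proteins, which modulate dimers already on DNA. Several of these genes are themselves NF-kB targets, and resynthesis of Nfkbia is the textbook example of negative feedback.

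The DNA element that these dimers recognise, the kB site, is shown first because several members carry it close to their own start. RefSeq promoter windows of assembly GRCm38.p6, from 250 bases before to 50 bases after a transcription start, were matched by symbol for 8 of the 10 members (12 windows, since Nfkb2 and Nfkbid have several starts). The canonical kB decamer was searched on both strands, and a palindromic or overlapping match marks the same bases more than once. It lay in 8 of the 12 windows, whereas 8.459% of all 32851 promoter windows held it. By gene, it lay in windows of 6 members, and no share by gene was computed over all genes. Stretches of 120 bases upstream of a start are printed only for members with a match before it, a single stretch each. They run 5′ to 3′ on the strand of the gene, with bases of a decamer match in capitals. Relb and Nfkbiz had no window, so neither was searched.
Nfkbie (chr17:45555580-45555699, plus strand, ending at position -1): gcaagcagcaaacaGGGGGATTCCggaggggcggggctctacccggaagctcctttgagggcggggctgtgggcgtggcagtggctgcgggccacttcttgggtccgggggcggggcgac
Nfkb2 (chr19:46304617-46304736, plus strand, ending at position -1): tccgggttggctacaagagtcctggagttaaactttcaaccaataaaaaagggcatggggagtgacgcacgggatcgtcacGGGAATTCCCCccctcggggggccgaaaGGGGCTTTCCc
Nfkbia (chr12:55492648-55492767, minus strand, ending at position -1): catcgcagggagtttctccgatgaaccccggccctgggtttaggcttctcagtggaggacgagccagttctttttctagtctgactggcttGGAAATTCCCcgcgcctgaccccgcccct
Rel (chr11:23770970-23771089, minus strand, ending at position -1): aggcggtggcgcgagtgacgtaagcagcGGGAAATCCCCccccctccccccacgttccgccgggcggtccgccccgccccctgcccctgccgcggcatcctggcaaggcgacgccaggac
Nfkbid (chr7:30422156-30422275, plus strand, positions -250 to -131 of its second listed start): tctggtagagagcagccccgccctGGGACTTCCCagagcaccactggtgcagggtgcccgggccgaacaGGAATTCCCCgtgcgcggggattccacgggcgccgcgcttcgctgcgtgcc

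The Nfkbie decamer, GGGGGATTCC, began at position -106 from the start. In Nfkb2 the palindrome GGGAATTCCC began at position -39 and GGGGCTTTCC at position -11, and both other Nfkb2 windows held a match too. These windows overlap, and the only match of the third is the same genomic site as a match of the second. Nfkbia had GGGAATTTCC on the opposite strand, spanning positions -29 to -20 and printed above as its reverse complement. In Rel GGGAAATCCC began at position -92, and in Nfkbid GGGACTTCCC began at -226 and GGGGAATTCC, on the opposite strand, spanned -181 to -172. Bcl3 had its match at positions 3 to 12, after the start. No decamer was found in the single windows of Rela and Nfkbib or in the other 2 Nfkbid windows. A match describes letters in the window and was not tied to binding in these cells.

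**Figure D1:**
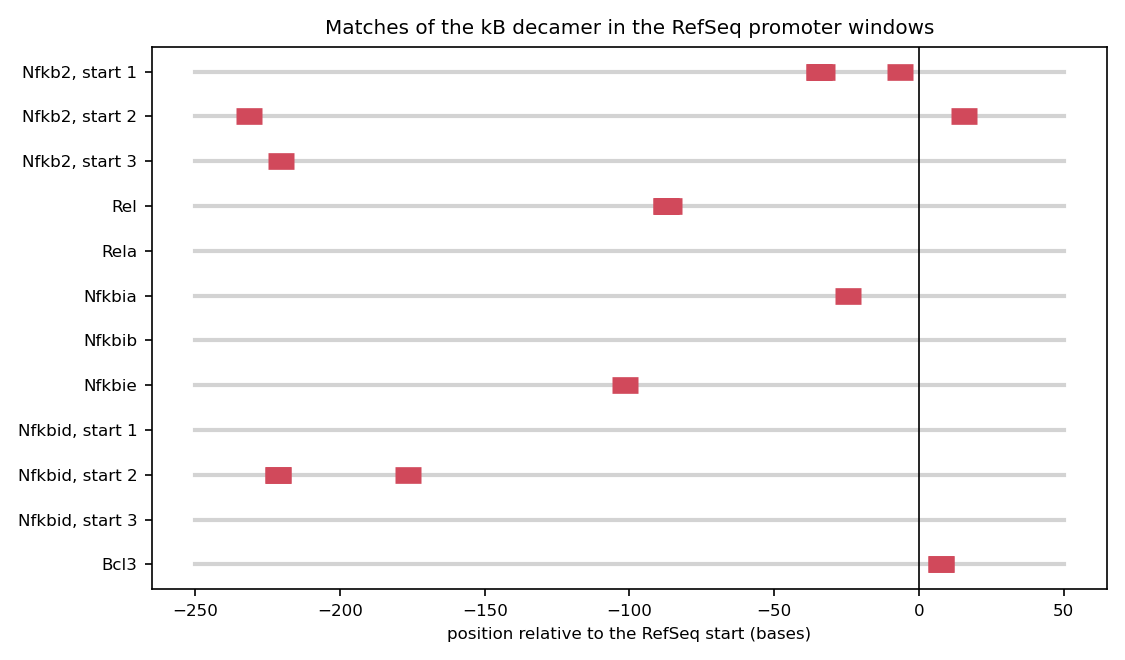
Position of kB decamer matches (red blocks) relative to the RefSeq transcription start (black line at 0, x axis in bases) in 12 promoter windows of 8 members. Matches lie in 8 of the 12 windows; the windows of Rela and Nfkbib have none.

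Most members had lower signals in both S100-treated cultures than in the control, and for most of them the signal was lowest with S100a8. Nfkbie (IkB-epsilon) was lowest relative to control, 3.06-fold lower with S100a8 and 2.50-fold lower with S100a9. Relb was 2.07-fold and 1.73-fold lower, and Nfkb2 and Nfkbia lay between 1.51-fold and 1.71-fold lower on their brightest probe sets. Rela, the main transactivating subunit, was closest to control with S100a9, at a log2 ratio of -0.06. Signals are MAS5 intensities, and values under a floor of 76.2, the 50th percentile of all signals, were set to the floor before taking log2. Each gene is represented by its brightest probe set, and a gene was compared when the mean log2 signal of that probe set lay above the floor. That held for 11127 genes and for 9 of the 10 members, Bcl3 being the exception.

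With S100a8, 9 of the 9 compared members were below control, and 5 of them (Nfkbie, Relb, Nfkb2, Nfkbia and Rel) were at least 1.5-fold lower, a size used here only as a description. Among all compared genes, 47.5% were below control and 1.91% were at least 1.5-fold lower. The members' median log2 ratio was -0.77, against 0.01 for all compared genes. Nfkbib and Nfkbid lay just outside that size, at log2 ratios of -0.58 and -0.57, where 1.5-fold is a log2 difference of 0.585. The nearest inside it was Rel, at -0.77. With S100a9, 9 of 9 were again below control and 4 (Nfkbie, Relb, Nfkbia and Nfkb2) were at least 1.5-fold lower, where the background was 48.0% and 0.854%. The median was -0.56, against 0.00450 for all compared genes. With S100a9 Nfkb2 lay just inside 1.5-fold, at -0.60, and Nfkbib just outside, at -0.56. Nfkb2 fell outside under quantile normalization (-0.58) and with the mean of its probe sets (-0.54). No member (0 of 9) was at least 1.5-fold higher with either protein, a size that 1.13% of genes passed with S100a8 and 0.252% with S100a9. At 2-fold, Nfkbie and Relb were lower with S100a8 (background 0.288%) and Nfkbie alone with S100a9 (0.144%).

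**Figure D2:**
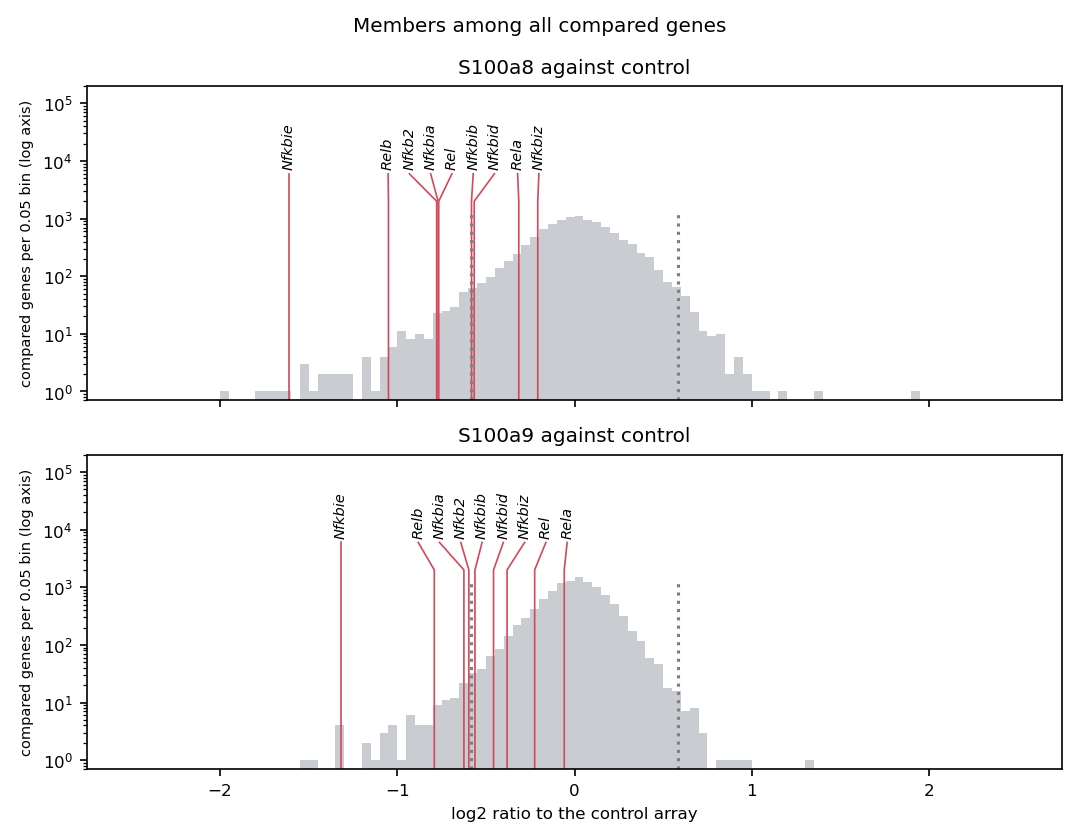
Histograms of the log2 ratio to the control array over 11127 compared genes (y axis, genes per bin on a log axis), for S100a8 (top) and S100a9 (bottom), with the 9 compared members marked by red lines; dotted lines mark 1.5-fold. Each of the 9 lies left of 0, Nfkbie farthest, and Rela lies within the bulk of genes with S100a9.

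Relb encodes the subunit that pairs mainly with p52 and is itself a known NF-kB target. Its signal was 500 with S100a8, 598 with S100a9 and 1035 in control cells, so the control array carried the highest value and both treated arrays lay well below it. Relative to all compared genes its log2 ratio ranked 27 of 11127 from the lowest with S100a8 (-1.05) and 33 with S100a9 (-0.79).

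Nfkb2, the precursor partner of Relb, was read by a pair of probe sets. Probe set 1425902_a_at gave 715 with S100a8, 811 with S100a9 and 1227 in control cells. The dimmer 1429128_x_at, whose ending marks probes that can also bind other transcripts, gave 170, 202 and 282. Both put the arrays in the same order, with log2 ratios of -0.78 and -0.73 for S100a8 and -0.60 and -0.48 for S100a9.

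Rel (c-Rel), a subunit best known from lymphocytes, was dim. Signal was 98.0 with S100a8, 143 with S100a9 and 167 in control cells, against the floor of 76.2. The log2 ratio to control was -0.77 for S100a8 but -0.23 for S100a9, and Rel differed most between the proteins of the 9 compared members.

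Rela (p65), the subunit of the prototypical heterodimer, was bright. It had 1981 in S100a8-treated cells, 2366 in S100a9-treated cells and 2464 in control cells. The S100a8 array was the low one (log2 ratio -0.31, rank 920 of 11127), while the S100a9 and control arrays differed by a log2 ratio of -0.06 (rank 3831). The 4 Rel subunit members thus covered a range from -1.05 to -0.31 with S100a8 and from -0.79 to -0.06 with S100a9. The order of the ends, Relb lowest and Rela highest, was that of both comparisons, which share the control.

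**Figure D3:**
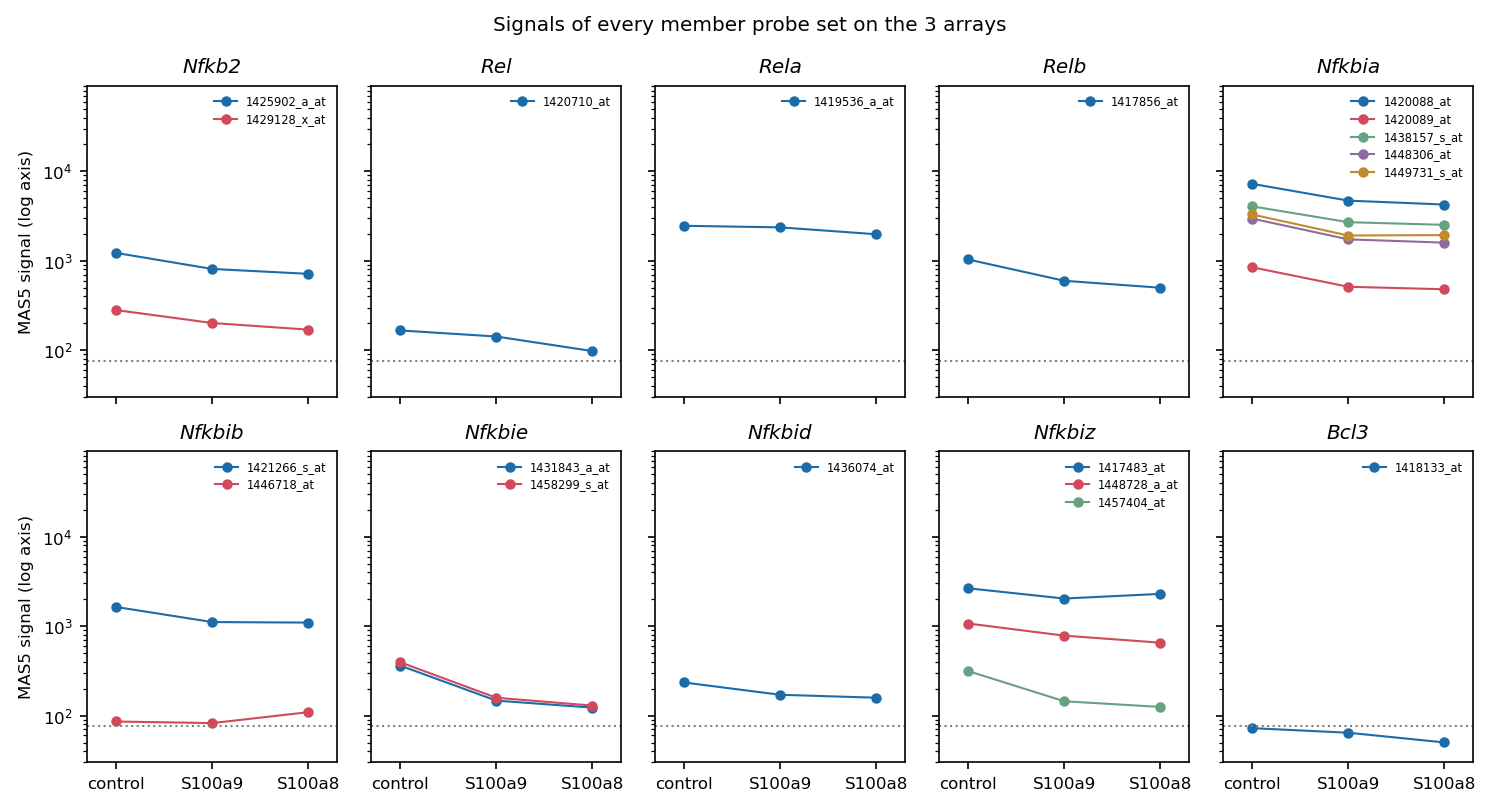
MAS5 signal (y axis, log axis) of each of the 19 member probe sets on the control, S100a9 and S100a8 arrays, 1 panel per gene; each line is 1 probe set and the dotted line is the floor of 76.2. In 16 of the 19 the order is control, then S100a9, then S100a8; the dim Nfkbib probe set, the brightest Nfkbiz probe set and Nfkbia 1449731_s_at depart from it, and Bcl3 lies below the floor on each array.

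Among the classical IkB genes, Nfkbia (IkB-alpha), the rapid feedback inhibitor, had the most probe sets. Its brightest, 1420088_at, gave 4257 with S100a8, 4709 with S100a9 and 7258 in control cells. Over 5 probe sets of Nfkbia, which share each array and are no replicates, the mean log2 ratio was -0.79 (SD 0.08) with S100a8 and -0.70 (SD 0.09) with S100a9. The single values ran from -0.89 to -0.69 and from -0.78 to -0.59, so no Nfkbia probe set came near the control. Across all genes with several probe sets above the floor (4696 genes), probe sets of the same gene had a pooled SD of 0.21 for S100a8 and 0.18 for S100a9.

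Nfkbie, which restrains mainly Rela and Rel dimers, gave 129 with S100a8, 159 with S100a9 and 396 in control cells on probe set 1458299_s_at. Its other probe set, 1431843_a_at, gave 123, 147 and 363. Both treated arrays were thus less bright than the control on each probe set, and the probe sets matched closely, at log2 ratios of -1.61 and -1.56 for S100a8 and -1.32 and -1.30 for S100a9. Among 11127 compared genes Nfkbie ranked 5 from the lowest with S100a8 and 4 with S100a9.

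Nfkbib (IkB-beta), which is resynthesised more slowly than IkB-alpha, differed by probe set. On 1421266_s_at it read 1097 with S100a8, 1112 with S100a9 and 1641 in control cells, both treated arrays being low by about the same amount (log2 ratios -0.58 and -0.56). On the dim 1446718_at they were 109, 82.5 and 86.0, close to the floor, with log2 ratios of 0.35 and -0.06. The statement that Nfkbib was lower rests on the brighter probe set alone.

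**Figure D4:**
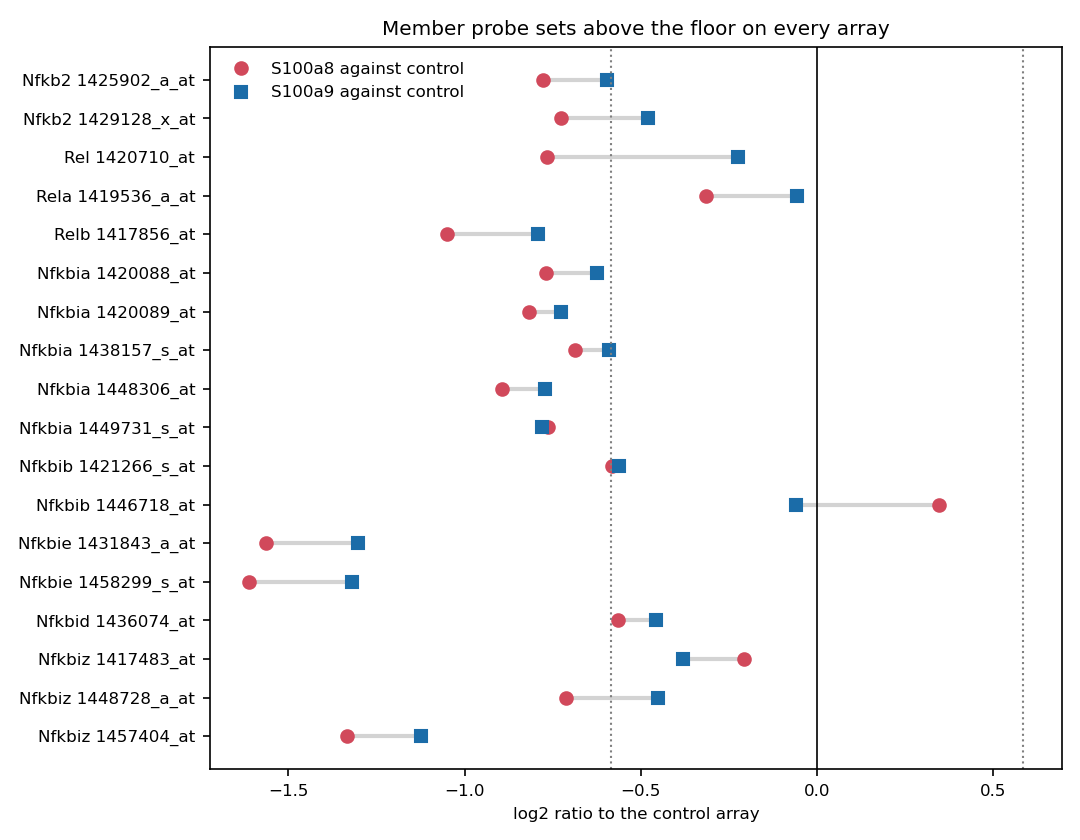
Log2 ratio to the control array (x axis) of the 18 member probe sets above the floor on every array, with S100a8 as red circles and S100a9 as blue squares; dotted lines mark 1.5-fold. The probe sets of Nfkbia, Nfkb2 and Nfkbie group closely, whereas those of Nfkbiz and Nfkbib are spread apart.

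Among the nuclear IkB genes, Nfkbiz (IkB-zeta), which is needed for secondary response genes such as Il6 and Lcn2, was read by 3 probe sets whose log2 ratios ran from -1.33 to -0.21 with S100a8 and from -1.12 to -0.38 with S100a9. The brightest, 1417483_at, had 2297 with S100a8, 2037 with S100a9 and 2652 in control cells, so here the S100a9 array was the lowest. Probe set 1448728_a_at had 654, 784 and 1071, and the dim 1457404_at had 125, 145 and 315, with the S100a8 array lowest on both. All 3 lay below control with either protein, while the size of the difference depended on the probe set: 1.15-fold, 1.64-fold and 2.52-fold lower with S100a8.

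The single probe set of Nfkbid (IkB-NS) read 159 with S100a8, 171 with S100a9 and 235 in control cells. Both treated arrays were below control, at log2 ratios of -0.57 and -0.46. Bcl3, a coactivator of p52 dimers, read 50.2 with S100a8, 64.4 with S100a9 and 72.5 in control cells. All 3 signals lay below the floor, and Bcl3 was not compared.

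Of the 18 member probe sets above the floor on every array, 17 were below control with both proteins, and 15 stood in the order S100a8, then S100a9, then control. Among all 18442 named probe sets above the floor on every array, 36.2% were below control with both proteins and 25.0% stood in that order. At least 1.5-fold lower were 13 of the 18 with S100a8 (background 2.92%) and 10 with S100a9 (1.56%). Probe sets of the same gene are not independent of each other.

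Set directly against each other, the S100a9 array had the higher signal for 8 of the 9 compared members, Nfkbiz on its brightest probe set being the other. The median log2 ratio of S100a9 to S100a8 was 0.18, against 0.02 for all compared genes, of which 45.0% were lower with S100a9. No member (0 of 9) reached 1.5-fold in this comparison, a size that 0.0989% of genes reached upward and 0.989% downward. Rel came closest, 1.46-fold higher with S100a9 and at rank 11111 of 11127 from the lowest. Nfkbie (0.29), Relb (0.26) and Rela (0.26) followed on the log2 scale, and Nfkbib (0.02) was nearly equal on the treated arrays. The value for the dim Nfkbie fell to 0.04 with the floor at the 65th percentile. The sign turned for Nfkbib with the mean of its probe sets (-0.19), with its dim probe set alone (-0.40) and when ratios were centred by brightness (-0.0079), and for Nfkbiz with the mean of its probe sets (0.10). Over all genes with several probe sets, the pooled SD between probe sets of the same gene in this comparison was 0.18. Most of these differences were of about that size. Among members read by several probe sets, the SD was 0.02 for Nfkbie, 0.05 for Nfkb2 and 0.06 for Nfkbia. It was 0.24 for Nfkbiz and 0.30 for Nfkbib. Probe sets share each array, so this spread is not that between cultures.

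Genes that act upstream of the IkB proteins had signals closer to control. Of 22 listed adaptors and kinases of NF-kB activation, 17 were compared. With either protein 0 were at least 1.5-fold lower (background 1.91% with S100a8 and 0.854% with S100a9) or higher (1.13% and 0.252%). At such shares a count of 0 says little about so short a list. Under an alternative setting 1 was at least 1.5-fold lower with S100a8, and likewise with S100a9. Below control by any size were 12 of the 17 with S100a8 and 13 with S100a9 (background 47.5% and 48.0%). The median of the 17 was -0.13 with S100a8 and -0.08 with S100a9 on the log2 scale. Sqstm1 (p62), a scaffold of Traf6 signalling, was the lowest with both: its signal was 5214 in the control, 3517 with S100a8 and 3611 with S100a9. Its log2 ratios were -0.57 with S100a8 and -0.53 with S100a9, and went down to -0.78 and -0.69 under other settings. Traf2, an adaptor of TNF receptors, was at -0.38 with S100a8 and the IKK-related kinase gene Ikbke at -0.42 with S100a9. The highest with S100a8 were Traf5 (0.40) and Traf6 (0.20), but their signs turned under other probe set rules, with values down to -0.26 and -0.03. With S100a9 they were Ikbkg, the regulatory subunit NEMO (0.28), and the kinase gene Map3k7 (0.13).

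Of 11 listed genes of IkB ubiquitination and turnover, 9 were compared, with a median log2 ratio of 0.02 with either protein. Rbx1, the RING subunit of the SCF ligase, read 208 in the control, 131 with S100a8 and 160 with S100a9. The deubiquitinase gene Usp11 read 154, 92.4 and 116 in that order. These dim genes were the 2 at least 1.5-fold lower with S100a8 (background 1.91%), a count of 0 with the floor at the 65th percentile, and 0 were so with S100a9 (0.854%). Nedd8, the ubiquitin-like modifier of cullins, was highest with S100a8 (0.17), followed by Cops5 (0.09), a subunit of the COP9 signalosome. Btrc, the F-box protein that recognises phosphorylated IkB, was at 0.13 with S100a9 and Nedd8 at 0.11.

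Of 18 listed nuclear cofactors and regulators, 16 were compared and 0 were at least 1.5-fold lower or higher with either protein. Among all compared genes the shares were also small, 1.91% lower and 1.13% higher with S100a8, and 0.854% and 0.252% with S100a9. The medians of the 16 were 0.02 for S100a8 and 0.03 for S100a9. Nkrf, a repressor of NF-kB target genes, was at 0.34 with S100a8 and 0.21 with S100a9, Nkiras1 was at 0.26 with S100a8, and Commd1, a promoter of Rela turnover, at 0.23 with S100a9. At the low end were Rps6ka5, the Rela kinase MSK1 (-0.30 and -0.07), Ppp1r13l (-0.12 with S100a8) and the acetyltransferase gene Ep300 (-0.13 with S100a9). The signs of Rps6ka5 with S100a9 and of Ppp1r13l turned under an alternative setting (up to 0.06 and 0.10).

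The inflammatory NF-kB target genes also lay below control for the most part. Of 35 listed targets, none of them a member, 26 were compared. With S100a8, 23 were below control, 18 of them at least 1.5-fold lower (background 1.91%), and the median log2 ratio was -0.87. With S100a9, 24 were below control, 16 of them at least 1.5-fold lower (0.854%), and the median was -0.70. This list was drawn up with earlier results of these data known and is no independent evidence of a direction. The monocyte chemokine gene Ccl2 read 2227 in the control, 576 with S100a8 and 813 with S100a9. The collagenase gene Mmp13 was at -1.78 or below with S100a8, where it lay under the floor, and the chemokine gene Cxcl10 at -1.50 with S100a9. In the other direction were the siderophore-binding Lcn2 (0.48 with both proteins), the gelatinase gene Mmp9 (0.58 with S100a8) and the receptor gene Cd40 (0.15 with S100a9).

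**Figure D5:**
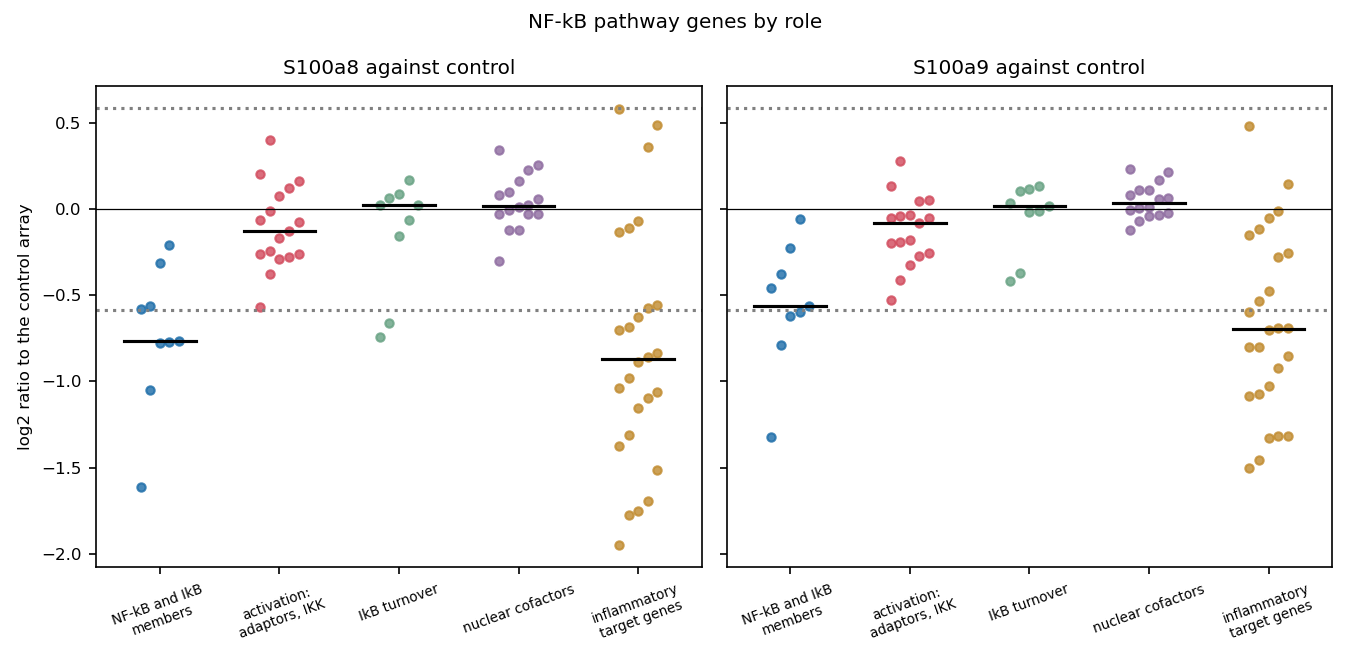
Log2 ratio to the control array (y axis) of the compared genes, 1 point per gene, for the NF-kB and IkB members and 4 lists of pathway genes, with S100a8 on the left and S100a9 on the right; black bars are medians and dotted lines mark 1.5-fold. Members and inflammatory targets have medians between -0.87 and -0.56, the other lists between -0.13 and 0.03.

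The 5 genes whose pair of log2 ratios against control lay nearest to that of Nfkbie, by Euclidean distance over the 3 arrays, were Ccl20, Cxcl3, Bdkrb2, Cyp26b1 and Mmp13. Their distances ran from 0.10 to 0.16 on the log2 scale, where that of Mmp13 rests on an S100a8 signal raised to the floor (69.3 against 76.2). Ccl20, a chemokine gene, was nearest, reading 1733 in the control, 605 with S100a8 and 690 with S100a9.

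Array-wide values that bear on these results were few. Median signals were 78.7 with S100a8, 73.8 with S100a9 and 76.3 in control cells. Dim signals were higher on the S100a8 array: over the 2782 dimmest compared genes the median log2 difference from control was 0.14, and over the others -0.01. The dim members Nfkbie, Rel and Nfkbid lay below control with S100a8. When ratios were centred by brightness, their log2 ratios went from -1.61 to -1.63, from -0.77 to -0.88 and from -0.57 to -0.58. Of the 3, only Rel thus moved by much. Of 12 listed epithelial markers, 5 (Epcam, Krt18, Krt20, Cdx2 and Cldn3) were above the floor on all arrays, while Cdh1, Vil1 and Krt19 were below it on each. Fibroblast markers were above the floor for 6 of 8 genes, and their signals summed to 12067 in the control, 10828 with S100a8 and 11879 with S100a9. Of the compared ones, 6 of the 6 were below control with S100a8 (median -0.49) and 5 with S100a9 (-0.17). Macrophage and granulocyte markers were above the floor for 5 of 9 genes on the array, and signals of the 9 summed to 1002, 1383 and 1261 in that order. The 5 (Cd68, Csf1r, Mpo, Lyz2 and Cd53) had median log2 ratios of 0.47 with S100a8 and 0.45 with S100a9. With S100a8 5 were above control, and with S100a9 4, Mpo being the exception (-0.11). At least 1.5-fold higher were Cd68 with S100a8 (0.63, background 1.13%) and Cd53 with S100a9 (0.59, background 0.252%). The leukocyte genes Ptprc, Itgam, Adgre1 and Tyrobp were below the floor on each array. Lymphoid markers (3 of 6 above the floor) had sums of 992, 1124 and 927, and endothelial markers (3 of 6) sums of 385, 461 and 398. The part of these marker differences in the members' values was not tested. The cultures were of a single cell line, so these marker signals are not read as amounts of other cell types. In bulk RNA, fewer cells expressing a gene and less of its RNA per cell cannot be told apart.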

How the data were processed

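The authors deposited 1 intensity per probe set and array, on a linear scale. Per the submitters' processing notes the tool was MAS5; neither version nor scaling target is given in the sources used here, and detection calls were not used here. RNA was extracted with Trizol, per the labels' protocols. MAS5 corrects each probe by its mismatch partner, so dim values are noisy, and array-wide scaling removes differences in RNA content per cell. Of the probe sets, 34945 had 1 symbol in the platform annotation and were used, 932 had several, 9160 were unlisted and 64 were controls. A RefSeq gene table (GRCm38.p6) matched 34741 of the named probe sets and changed 0 symbols.

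Log2 ratios between arrays were computed here from the deposited intensities, after raising values under the floor to it (pandas 2.3.3, Python 3.11.15). The probe set with the highest mean log2 stood for its gene. The text names every member, the 2 lowest and 2 highest compared genes of each pathway list per comparison with control, and the 5 genes nearest to the member with the largest mean ratio. Marker genes were named after their values were seen. Members and lists were chosen with earlier results of these data known. The script was tested on simulated arrays. Alternatives changed the scaling (median centring, quantile normalization, centring in 20 brightness bins), the floor (30th percentile, 65th percentile, or none with 1 added before log2), the filter on dim genes, the choice of probe set (the mean of a gene's probe sets, or those not ending in _x_at or _s_at first) and the size (2-fold). No p-value was computed, since each group holds 1 array.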

Additional observations from a re-analysis of the deposited data

Results flagged for a closer look

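Some values had opposite signs with the 2 proteins, each on single arrays, and none of these differences was tested. The dim Nfkbib probe set 1446718_at had a log2 ratio of 0.346 with S100a8 and -0.0592 with S100a9. Among pathway genes, Mmp9 had 0.581 with S100a8 and -0.051 with S100a9, and Traf5 had 0.397 and -0.0405. Nkiras1 had 0.256 and -0.0075, and Traf6 0.200 and -0.0798, in the same order. Ppp1r13l had -0.124 with S100a8 and 0.107 with S100a9, and Ep300 had 0.0232 and -0.126. For the pathway genes other than Ep300, a sign turned under at least 1 alternative setting; the single probe set was not recomputed. With S100a8, Traf5 went down to -0.258 and Traf6 to -0.031, and Ppp1r13l up to 0.102. With S100a9, Mmp9 went up to 0.0033, Traf5 to 0.0094 and Nkiras1 to 0.045, and Ppp1r13l down to -0.096. Ep300 kept both signs, with values from 0.011 to 0.060 with S100a8 and from -0.130 to -0.104 with S100a9.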

How the results depend on the processing

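No paired analysis was possible because each group holds 1 array. Under 9 alternative scalings, floors, filters and probe set rules, the number of members at least 1.5-fold lower stayed between 4 and 6 with S100a8 and between 3 and 4 with S100a9, and 0 were at least 1.5-fold higher with either. At 2-fold these counts were 2 and 1. The members' median with S100a8 was -0.67 for a floor at the 30th percentile and for no filter, where Bcl3 entered (10 members). It was -0.68 for a floor at the 65th percentile, where 8 members were compared. With S100a9 it was -0.46 when probe sets without _x_at or _s_at endings came first. In S100a9 against S100a8, 1 member was at least 1.5-fold higher under quantile normalization and 1 under centring by brightness. Nfkbib had a log2 ratio of 0.35 with S100a8 when its dim unique probe set was taken, and Nfkbiz -0.75 with the mean of its probe sets. No value of at least 1.5-fold changed sign under an alternative. With 1 array per group, the spread between cultures is unknown, and signals near the floor limit Rel, Nfkbid and Nfkbie.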
